A study of Mus musculus with 11 samples.

Results

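The 41 genes described here encode chaperones and disulfide isomerases that fold proteins, sensors and transcription factors of the unfolded protein response, and targets of the transcription factor ATF4. They were chosen by symbol, as members of these pathways, and make up 41 of the 24411 gene symbols in the count files. All 41 were found in the files, and all 41 passed the filter on low counts in every comparison. They fall into 8 sensors, transcription factors and regulators, and 6 ATF4 targets of amino acid metabolism and stress. Another 13 are chaperones and isomerases of the endoplasmic reticulum (ER). The rest are 3 genes of ER-associated degradation, 9 cytosolic heat shock genes and the 2 subunits of the mitochondrial chaperonin.

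RNA sequencing was done on 4 groups of mouse libraries: corpus callosum labelled Bmal1-/- (2 libraries), wild-type corpus callosum (3), neurospheres labelled Bmal1-/- (3) and wild-type neurospheres (3). The mice were 8 to 10 weeks old. The corpus callosum is the myelinated fibre tract between the cerebral hemispheres, and neurospheres are free-floating balls grown from neural stem and progenitor cells, here cultured for 1 week from the subventricular zone (SVZ) in EGF (20 ng/ml) plus heparin (2 ug/ml). Bmal1, with the gene symbol Arntl, encodes the partner of CLOCK in the circadian transcription factor, and the labels give for the knockout neither strain nor the exons removed.

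The depth, as the total of gene counts, was 17513165 to 17836955 for callosum and 17450270 to 19717848 for neurospheres. Nothing in the labels tells separate animals or cultures from repeats of 1 sample, so the spread behind each p-value is that between libraries and may be technical. Arntl stood at 32.3 and 40.3 CPM (read counts scaled to library size) in callosum labelled Bmal1-/-, against 39.3, 35.8 and 32.5 CPM in wild-type callosum, at 0.03 ± 0.14 on the log2 scale (SE, edgeR adjusted p = 0.943). In neurospheres Arntl stood at 40.5, 42.8 and 48.9 CPM where labelled Bmal1-/-, against 38.2, 49.4 and 45.8 CPM in wild type, at -0.01 ± 0.17 on the log2 scale (SE, edgeR adjusted p = 0.983). The count of the targeted gene therefore did not separate the genotypes, and every genotype below is that of the label. Markers of mature oligodendrocytes summed to 21297 to 33006 CPM in callosum and 1342 to 2244 CPM in neurospheres. Neuron markers also reached 5083 to 6763 CPM in callosum, and cell cycle markers lay at 23.7 to 32.9 CPM there, against 787 to 1457 CPM in neurospheres. Of all the markers, the 4 haemoglobin genes were at 0 in every library. Ttr, a choroid plexus marker, was at 0 in every neurosphere library, and the cell cycle marker Ccnb1 was at 0 in wild-type callosum. The remaining blood marker, Alas2, stood at 2.31 to 3.38 CPM in callosum and 0.133 to 0.320 CPM in neurospheres. Reads that map to several places were not counted, and absence of blood cannot be read from the haemoglobin zeros. The first neurosphere library labelled Bmal1-/- stood apart from the rest, with 22.6% of its reads unmapped against 13.7% to 16.2% in the other neurosphere libraries.

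Proteins that enter the secretory pathway fold in the ER with the help of chaperones such as BiP, encoded by Hspa5. When unfolded proteins build up there, the sensors IRE1, PERK and ATF6 start the unfolded protein response, which raises ER chaperones through XBP1 and ATF6 and, through phosphorylation of eIF2 by PERK, favours translation of ATF4. ATF4 also responds to amino acid shortage and drives genes of amino acid synthesis, while HSF1 drives the separate heat shock response of the cytosol. Myelinating oligodendrocytes make large amounts of membrane protein and lipid, and the unfolded protein response has been widely studied in them.

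The DNA letters of an element of the unfolded protein response, which some of these genes hold, are shown first. The ER stress response element (ERSE), to which ATF6 and NF-Y bind, was searched as CCAAT and CCACG with 9 bases between them, on both strands, in windows from 250 bases before to 50 bases after the RefSeq start site (build GRCm38.p6, the assembly of mm10). A window was found for 34 of the 41 genes. The element was present for 29 of 17224 genes with a window (0.168%), and for 7 of the 34 (20.6%). All 7 were among the 11 ER chaperones and isomerases with a window. Among further genes with a window, it was present for 0 of 16 of ER folding and 2 of 9 of ER-associated degradation. Each match is printed 5′ to 3′ with 6 flanking bases on either side, with the match in capitals, on the strand that reads CCAAT to CCACG.
Hspa5 (chr2:34772019-34772049, plus strand): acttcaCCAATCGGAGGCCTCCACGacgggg
Hsp90b1, first match (chr10:86705632-86705662, minus strand): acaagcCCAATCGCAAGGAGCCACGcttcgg
Hsp90b1, other match (chr10:86705527-86705557, plus strand): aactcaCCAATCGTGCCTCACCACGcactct
Calr (chr8:84847069-84847099, plus strand): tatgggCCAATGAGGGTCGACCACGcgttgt
Canx (chr11:50325794-50325824, minus strand): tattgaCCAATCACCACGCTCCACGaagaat
Pdia6 (chr12:17266485-17266515, plus strand): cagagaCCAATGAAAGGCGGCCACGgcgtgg
Dnajc3 (chr14:118937821-118937851, plus strand): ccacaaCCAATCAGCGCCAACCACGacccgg
Creld2 (chr15:88819514-88819544, minus strand): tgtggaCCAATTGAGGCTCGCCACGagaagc

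The other motifs that were found were not confined to a single group. The ATF4 element of its targets, TGATGNAA, lay in the windows of Atf3, Trib3, Asns, Chac1 and Herpud1, 5 of 34, against 4.0% of all genes. The heat shock element, searched as GAA, TTC and GAA with 2 bases between each, lay in those of Hsph1, Hspd1 and Hspe1, against 0.691% of all genes. Hsph1 was 1 of 5 cytosolic heat shock genes with a window. A window of Hspd1 and that of Hspe1 share 285 bases, with the heat shock elements of Hspe1 among them. The E-box CACGTG, which CLOCK and BMAL1 bind, lay in the windows of Calr, Dnajb9, Hsph1 and Hspd1, 4 of 34 (11.8%), close to the 9.17% of all genes. The element TGACGTGG of XBP1 (0.865% of all genes), the ROR element (AANTN followed by GGTCA, 0.615%) and the D-box TTANGTAA (2.5%) were in none of the 34 windows. All motifs were searched on both strands. A match describes these letters and is not evidence of binding.

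The genotype comparison in callosum asks whether loss of BMAL1 changed these genes in white matter. Of the 41 genes, 1 rose in callosum labelled Bmal1-/-, Bag3, and 0 fell by edgeR or DESeq2. Among all 14198 genes tested in callosum, 0.909% passed, 0.521% higher and 0.387% lower. At an unadjusted p under 0.05 there were 5 of the 41 (12.2%), against 13.9% of all genes: Bag3 and Sesn2 were higher, and Atf6, Hsp90aa1 and Psat1 were lower. The median log2 fold change of the 41 was -0.04, against -0.01 for all genes tested.

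Bag3 encodes a co-chaperone that links HSP70 and small heat shock proteins to the autophagic clearance of misfolded proteins. It stood at 85.6 and 106 CPM in callosum labelled Bmal1-/-, against 46.9, 50.2 and 51.9 CPM in wild-type callosum. Both libraries labelled Bmal1-/- lay above all 3 wild-type libraries, as was the case for 6 of the 41 genes and for 13.7% of all genes. The difference was 1.95-fold, at 0.96 ± 0.12 on the log2 scale (SE, edgeR adjusted p = 0.00823). The call was lost without the third wild-type callosum library, at a log2 fold change of 0.99 (edgeR adjusted p = 0.0780), and in a model of all 11 libraries together, at 0.95 (edgeR adjusted p = 0.0564). Over the other fits without offsets the adjusted p ran from 3.01e-08 to 0.0329.

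Bag3 lies on chromosome 7, at 128523616 to 128546981 of mm10 on the plus strand, 15.2 Mb from Arntl. It is the only one of the 41 genes on that chromosome. None of its 50-base stretches occurs in another gene's transcripts, and no exon of another gene overlaps it. Its 300-base window, shown because Bag3 was the one gene called between genotypes, held none of the 7 motifs searched, so no letters are in capitals.
Bag3 (chr7:128523333-128523632, plus strand): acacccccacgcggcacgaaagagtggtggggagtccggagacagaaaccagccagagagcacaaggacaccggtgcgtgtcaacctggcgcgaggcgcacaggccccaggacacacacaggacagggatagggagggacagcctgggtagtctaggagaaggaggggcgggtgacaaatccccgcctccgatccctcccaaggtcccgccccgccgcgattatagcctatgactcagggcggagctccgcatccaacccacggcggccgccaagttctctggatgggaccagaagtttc

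In neurospheres Bag3 did not pass. It stood at 89.0, 84.0 and 75.6 CPM in neurospheres labelled Bmal1-/-, against 113, 83.7 and 88.6 CPM in wild-type neurospheres, at -0.20 ± 0.18 on the log2 scale (SE, edgeR adjusted p = 0.798), and the groups overlapped. The callosum effect minus the neurosphere effect was 1.14 ± 0.23 (SE) on the log2 scale, with an edgeR adjusted p of 0.228 over all genes. DESeq2 gave an adjusted p of 0.00392 for this difference, and every edgeR alternative a value above 0.05, from 0.0794 to 1.00. By group means Bag3 averaged 96.0 ± 14.6 CPM in callosum labelled Bmal1-/- (SD, n = 2) and 49.7 ± 2.52 CPM in wild-type callosum (SD, n = 3). It averaged 82.9 ± 6.76 CPM in neurospheres labelled Bmal1-/- and 95.0 ± 15.6 CPM in wild-type neurospheres (SD, n = 3 each), so wild-type callosum lay below the other groups, which overlapped one another. Per kilobase of transcript, Bag3 ranked 6th of the 41 in callosum labelled Bmal1-/- and 19th in wild-type callosum.

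**Figure D1:**
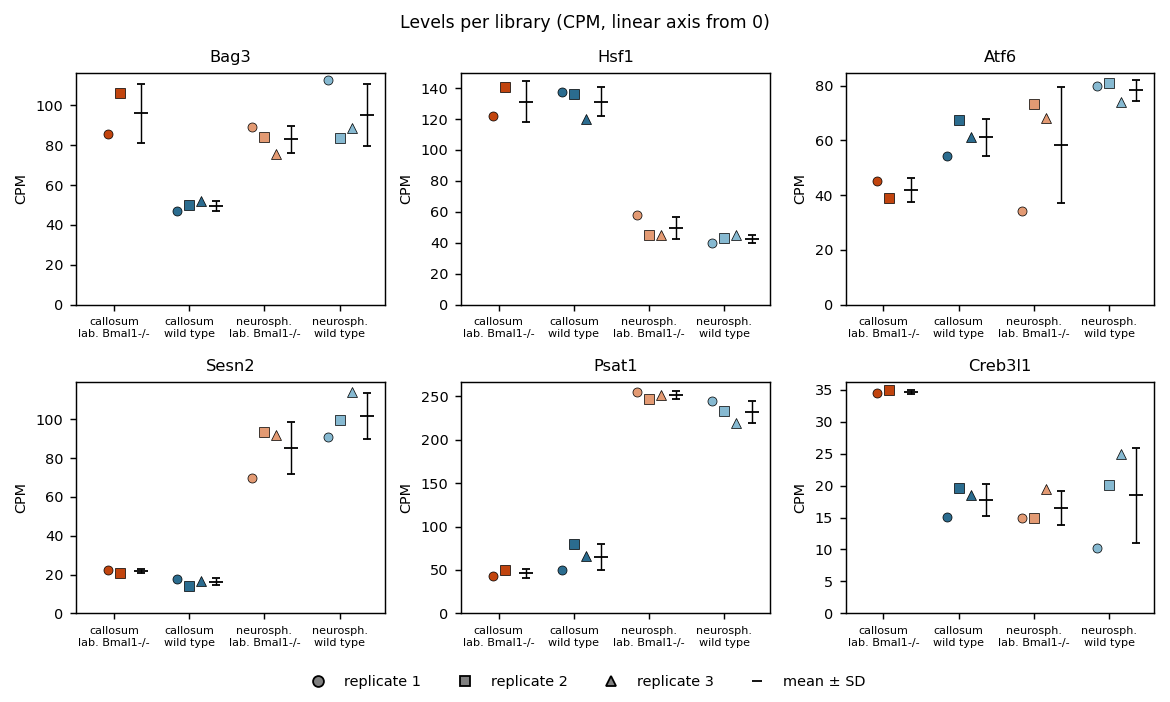
Level of 5 of the 41 genes and of Creb3l1 in each library, in CPM on a linear axis from 0, by group; symbols are replicate numbers, bars are mean ± SD, and "lab." stands for labelled. Bag3 stood at 85.6 and 106 CPM in callosum labelled Bmal1-/-, above the 46.9 to 51.9 CPM of wild-type callosum, while Hsf1 overlapped between these groups.

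The partners of Bag3 did not pass in the same comparison. Hsf1, the master regulator of the heat shock response, had 122 and 140 CPM in callosum labelled Bmal1-/-, against 137, 136 and 120 CPM in wild-type callosum, a log2 fold change of 0.01 ± 0.11 (SE). Among the chaperones that BAG3 binds, Hspa1a was at 0.32 ± 0.21, Hspa1b at -0.39 ± 0.28 and Hspa8 at -0.15 ± 0.15 (log2 fold change ± SE). Of genes outside the 41, the small heat shock proteins Hspb8 (0.18 ± 0.14), Hspb1 (0.33 ± 0.25) and Cryab (-0.23 ± 0.13) and the ubiquitin ligase Stub1 (0.08 ± 0.11) did not pass either. None of the 21 further heat shock genes tested was called. Of 6 astrocyte markers, none at 0, Gfap was called higher and Aldh1l1 lower, while Aqp4, Sox9, Slc1a2 and Gja1 did not pass. Gfap, the intermediate filament of astrocytes, stood at 1860 and 1949 CPM in callosum labelled Bmal1-/- and 356, 489 and 419 CPM in wild-type callosum, and Aldh1l1 was at -0.55 ± 0.10 (log2 fold change ± SE). The sum of the 6 was 3211 to 3519 CPM in callosum labelled Bmal1-/- and 1750 to 1979 CPM in wild-type callosum, a gap that lay in Gfap. Markers of tissue next to the callosum had negative estimates, none of them called. The 7 striatal neuron markers lay at a median of -1.28 on the log2 scale, with sums of 780 to 986 CPM in callosum labelled Bmal1-/-, against 822 to 2635 CPM in wild-type callosum. The 4 choroid plexus markers tested had a median of -1.37, and the sums over all 5 were 9.67 to 14.0 CPM in callosum labelled Bmal1-/-, against 22.0 to 178 CPM in wild-type callosum. The part of cell composition or dissection in the Bag3 difference was not tested, and in bulk tissue a change in the number of cells of a type and a change in RNA per cell cannot be told apart.

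The other genes with an unadjusted p under 0.05 did not survive adjustment over all genes. Atf6, the ER membrane sensor that is cleaved to a transcription factor, had 45.1 and 38.9 CPM in callosum labelled Bmal1-/-, against 54.4, 67.5 and 61.2 CPM in wild-type callosum. It differed by -0.53 ± 0.13 on the log2 scale (SE, edgeR adjusted p = 0.132), and the groups did not overlap. Sesn2, a stress-induced inhibitor of mTORC1, had 22.6 and 21.0 CPM in callosum labelled Bmal1-/-, against 17.7, 14.2 and 16.8 CPM in wild type, at 0.44 ± 0.14 (edgeR adjusted p = 0.236). Psat1, an enzyme of serine synthesis, had 42.6 and 49.6 CPM in callosum labelled Bmal1-/-, against 50.2, 80.2 and 66.0 CPM in wild type, at -0.49 ± 0.19 (edgeR adjusted p = 0.312). Hsp90aa1, the inducible cytosolic HSP90, was at -0.32 ± 0.11 (edgeR adjusted p = 0.247). Of the 50-base stretches of Hsp90aa1, 58.5% also occur in other genes, and reads that map to several places were not counted. Counting by overlap, 7 of the 41 (17.1%) lay wholly below wild type in callosum labelled Bmal1-/-, against 18.7% of all genes, and 6 (14.6%) wholly above, against 13.7%.

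Of the 13 ER chaperones and isomerases 0 passed between the genotypes in callosum, and their log2 fold changes ran from -0.18 ± 0.10 for Hsp90b1 to 0.18 ± 0.25 for Sdf2l1 (SE). Hspa5, the main ER chaperone, had 71.2 and 85.3 CPM in callosum labelled Bmal1-/-, against 72.5, 74.1 and 65.2 CPM in wild type, at 0.16 ± 0.12 (edgeR adjusted p = 0.557). Atf4 was at 0.10 ± 0.11 and Ddit3, the pro-apoptotic factor CHOP, at 0.18 ± 0.11 (log2 fold change ± SE). The SE of the 41 genes ran from 0.09 for Canx to 0.55 for Trib3, which had only 0.483 to 1.92 CPM in callosum. In the further pathway lists, 1 gene passed in callosum, to be read against 0.909% of all genes. It was 1 of 13 further sensors and regulators tested. Among 32 further ATF4 targets, 23 ER folding genes, 15 genes of ER-associated degradation, 21 heat shock genes and 9 mitochondrial genes, 0 passed. Creb3l1, which encodes an ER membrane transcription factor of the ATF6 kind (OASIS) described in astrocytes, had 34.4 and 34.9 CPM in callosum labelled Bmal1-/-, against 15.002, 19.7 and 18.6 CPM in wild-type callosum. Its log2 fold change was 0.98 ± 0.14 (SE, edgeR adjusted p = 0.0178), and the groups did not overlap. Fits under other settings are not given here for Creb3l1.

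**Figure D2:**
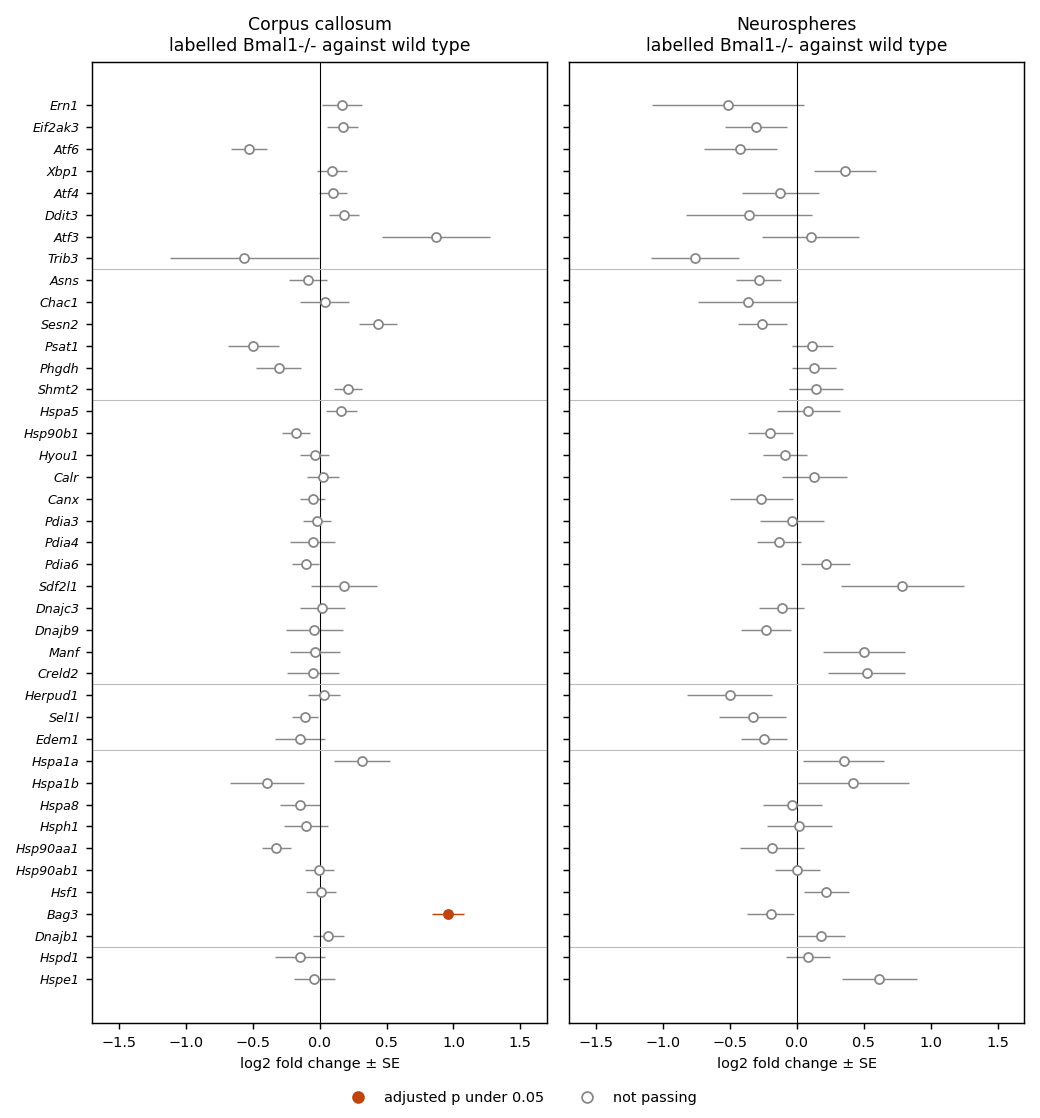
Log2 fold change ± SE of the 41 genes between libraries labelled Bmal1-/- and wild type, in callosum (left) and neurospheres (right), grouped by role from sensors at the top to the mitochondrial chaperonin at the bottom; filled points passed an adjusted p of 0.05. Bag3 in callosum, at 0.96, is the only filled point, and the neurosphere estimates have wider errors.

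In neurospheres, the genotype comparison asks the same of dividing stem and progenitor cells. Of the 41 genes, 0 passed there by edgeR and 0 by DESeq2, against 0.00716% of the 13968 genes tested. An unadjusted p under 0.05 was found for 1 of the 41 (2.44%), against 3.02% of all genes. The log2 fold changes had a median of -0.04, against -0.01 for all genes, and SE from 0.15 for Psat1 to 0.57 for Ern1. The 4 genes of smallest p all had an edgeR adjusted p of 0.798. Trib3, a pseudokinase induced by ATF4 and CHOP, had 8.28, 8.61 and 8.85 CPM in neurospheres labelled Bmal1-/-, against 7.62, 17.1 and 19.1 CPM in wild-type neurospheres. Its log2 fold change was -0.76 ± 0.33 (SE), and the first wild-type library lay below all 3 libraries labelled Bmal1-/-.

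The other 3 genes were higher in the first library labelled Bmal1-/-. Hspe1, the small subunit of the mitochondrial chaperonin, had 52.3, 25.5 and 31.7 CPM in neurospheres labelled Bmal1-/-, against 23.8, 26.6 and 21.2 CPM in wild type, at 0.62 ± 0.28. Creld2, an ER stress gene of the disulfide isomerase kind, had 32.2, 18.0 and 19.3 CPM where labelled Bmal1-/-, against 20.9, 13.7 and 13.9 CPM in wild type, at 0.52 ± 0.29. Sdf2l1, a partner of the ER chaperone ERdj3, had 12.2, 4.90 and 4.49 CPM where labelled Bmal1-/-, against 6.04, 3.34 and 3.14 CPM in wild type, at 0.79 ± 0.46. All 3 overlapped between the genotypes. Counting over the 41, 2 genes (4.88%) lay wholly above wild type in neurospheres labelled Bmal1-/-, against 6.37% of all genes, and 3 (7.32%) wholly below, against 5.52%. Without the first library labelled Bmal1-/-, their log2 fold changes were 0.25 for Hspe1, 0.20 for Creld2 and 0.16 for Sdf2l1.

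Single libraries set most of the spread among the neurospheres. The first library labelled Bmal1-/- held the highest or the lowest value of the 6 for 27 of the 41 genes (65.9%), against 76.2% of all genes. Ern1, the sensor IRE1, had 1.42, 8.92 and 9.38 CPM in neurospheres labelled Bmal1-/-, against 10.5, 9.29 and 8.35 CPM in wild-type neurospheres. The first wild-type library in turn was low for some genes of the ATF4 branch, which are named here after their values were seen. Ddit3 had 23.9, 20.5 and 30.5 CPM in neurospheres labelled Bmal1-/-, against 10.5, 40.9 and 44.6 CPM in wild-type neurospheres. Atf4 itself had 145, 105 and 145 CPM in neurospheres labelled Bmal1-/-, against 86.3, 174 and 171 CPM in wild-type neurospheres. Herpud1, an ER stress gene of ER-associated degradation, had 16.2, 15.1 and 21.0 CPM where labelled Bmal1-/-, against 13.6, 28.7 and 31.8 CPM in wild type. In that same wild-type library Hspa5 was the highest of its group, at 440 CPM, against 335 and 295 CPM in the other 2. Hspa5 thus differed between wild-type libraries in the direction opposite to Ddit3, Atf4 and Herpud1, and the cause was not tested. Among the 6 ATF4 targets, Psat1 alone was highest in that library, at 244 CPM, against 232 and 219 CPM in the other wild-type libraries. The others of the 6 were lowest there, and the 6 summed to 660 CPM, against 700 and 717 CPM. Of the 33 further ATF4 targets tested in neurospheres, 0 passed, and their median log2 fold change was -0.22, against -0.01 for all genes. Fold changes between the neurosphere genotypes also ran with transcript length, at a Spearman rho of -0.582 over 13487 genes and -0.315 over the 41, as a description across genes, and the part of length in these values was not tested.

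**Figure D3:**
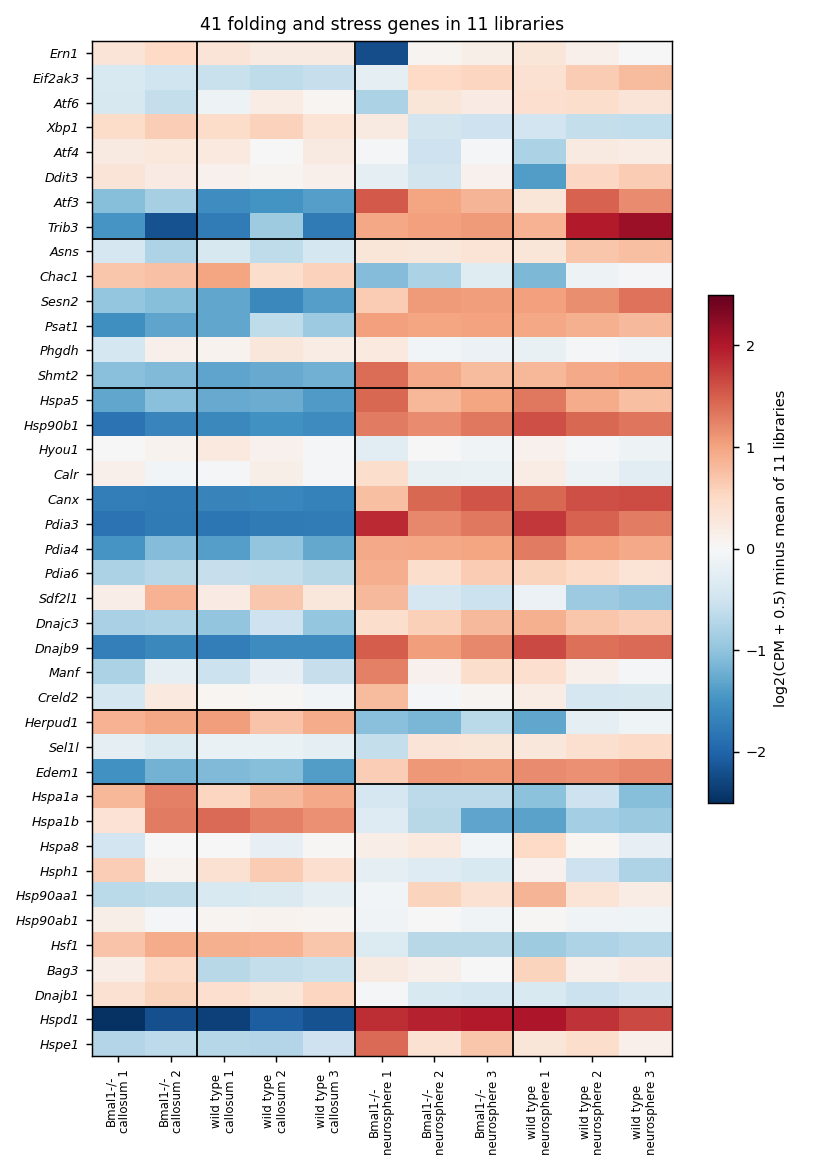
Each of the 41 genes (rows, grouped by role) in each of the 11 libraries (columns), as log2(CPM + 0.5) minus the mean of the gene over the 11 libraries, red above and blue below the mean. Most ER chaperones and Hspd1 are blue in callosum and red in neurospheres, the heat shock genes Hspa1a, Hspa1b and Hsf1 the other way round, and Bag3 separates the genotypes in callosum.

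The largest differences in these genes lay between the sources. In wild-type libraries, 23 of the 41 genes were lower in callosum than in neurospheres and 10 were higher, so 56.1% were lower and 24.4% higher, against 43.8% and 42% of the 14733 genes tested, of which 85.8% passed in either direction. In libraries labelled Bmal1-/-, which share no library with the wild-type ones, 19 were lower and 8 higher (46.3% and 19.5%), against 37.5% and 35.1% of the 14883 genes tested, of which 72.6% passed. Leaving out the second or the third neurosphere library, or either callosum library labelled Bmal1-/- left 5 of these higher, and leaving out the first neurosphere library gave 10 higher. The 27 genes called in the libraries labelled Bmal1-/- were all called in wild type in the same direction, 19 lower and 8 higher. This held for nearly all genes, since 10427 of the 10437 genes called in both had the same direction. Wholly below neurospheres lay 23 of the 41 in wild-type callosum and 20 in callosum labelled Bmal1-/-, against 45.4% and 43.1% of all genes, and wholly above 11 and 12, against 42.3% and 40.3%. For all genes tested in both, 37% were lower in both and 34.5% higher in both. The median log2 fold change of the 41, callosum over neurospheres, was -0.57 in wild type and -0.42 in libraries labelled Bmal1-/-, against -0.06 and -0.08 for all genes.

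The source difference followed the base composition of the transcripts, and every value below is to be read beside that. In wild type the median log2 fold change, callosum over neurospheres, was -2.81 in the decile of all genes with the lowest GC content (median 39.8%) and 1.90 in the decile with the highest (median 59.9%). The Spearman rho of log2 fold change and GC content was 0.570 over 14210 genes and 0.479 over the 41, as a description across genes. Unmapped reads and reads outside genes also did not overlap between the sources, so source, culture and library preparation cannot be told apart. Fits with offsets per library for GC content and length were therefore added after the data were seen. Such offsets also remove any difference of the cells themselves that runs with GC content. With them, 22 of the 41 were lower and 11 higher in wild-type callosum, and 18 of the 23 lower and 6 of the 10 higher calls were kept. The shares of all genes lower and higher with the offsets are not given here, so these counts have no background beside them.

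**Figure D4:**
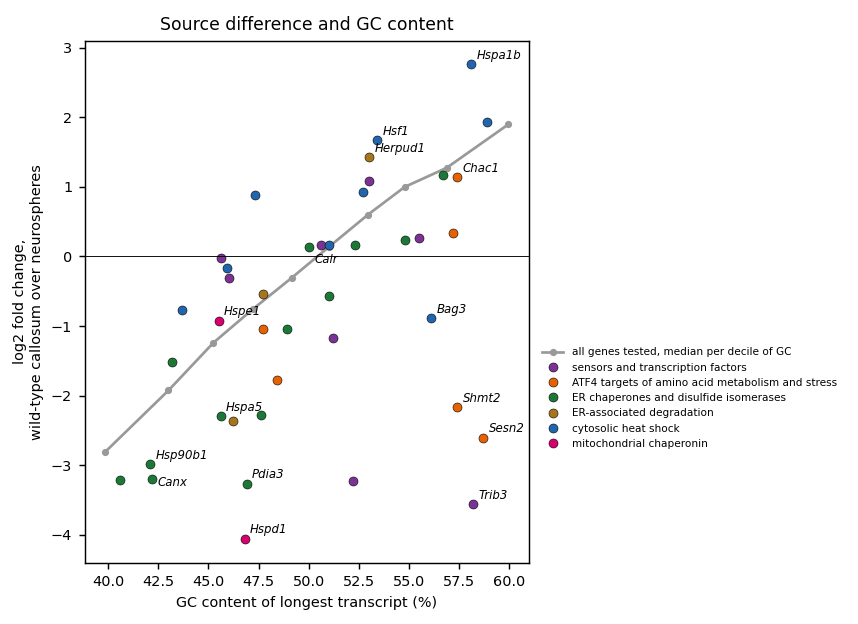
Log2 fold change of each of the 41 genes between wild-type callosum and wild-type neurospheres (vertical axis) against the GC content of its longest transcript in percent (horizontal axis), coloured by role; the grey line joins the medians of all genes tested per decile of GC content. Hspd1, Pdia3, Trib3, Sesn2, Shmt2 and Bag3 lie below it, and Hsf1 and Hspa1b above it.

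Both genotypes with and without the offsets make 4 fits. Across all 4 fits, 14 of the 41 genes were lower in callosum than in neurospheres and 3 were higher. The shares of all genes in the same 4 fits are not given here, so these counts have no background beside them. In the fits without the offsets, 37% of all genes were lower in both genotypes and 34.5% higher in both. The 14 were Atf3, Trib3, Sesn2, Psat1, Shmt2, Hspa5, Hsp90b1, Canx, Pdia3, Pdia4, Pdia6, Manf, Edem1 and Hspd1, and the 3 were Herpud1, Hsph1 and Hsf1. Of these 17 genes, Manf and Hsph1 lost calls under other settings, as given below. In wild type 4 genes passed in opposite directions without and with the offsets. The log2 fold change of Atf6 was -0.31 without and 0.74 with them, that of Phgdh 0.34 and -1.01, that of Hsp90aa1 -0.77 and 0.86, and that of Hspe1 -0.93 and 0.43. No direction is given for these 4 genes. In libraries labelled Bmal1-/-, 1 gene did so, Hsp90aa1, at -0.92 without and 0.75 with the offsets.

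Of the 8 sensors, transcription factors and regulators, 4 were lower and 1 higher in wild-type callosum, against 43.8% and 42% of all genes. In callosum labelled Bmal1-/- 2 were lower and 1 higher, against 37.5% and 35.1% of all genes. Atf6, among the 4, turned with the offsets, as given above. Trib3 had 0.826, 1.92 and 0.820 CPM in wild-type callosum, against 7.62, 17.1 and 19.1 CPM in wild-type neurospheres, at -3.56 ± 0.44 on the log2 scale (SE, edgeR adjusted p = 3.85e-05) and of -5.04 with the offsets. Atf3, a stress-induced factor of the ATF family, had 0.551, 0.596 and 0.684 CPM in wild-type callosum, against 3.34, 8.05 and 6.51 CPM in wild-type neurospheres, at -3.23 ± 0.40 (edgeR adjusted p = 3.66e-05) and -3.61 with the offsets. Neither overlapped between the sources in either genotype. Trib3 had 1.12 and 0.483 CPM in callosum labelled Bmal1-/-, against 8.28, 8.61 and 8.85 CPM in neurospheres so labelled, at -3.37 ± 0.41, and Atf3 0.978 and 1.24 CPM in callosum, against 8.50, 5.61 and 5.07 CPM in neurospheres, at -2.47 ± 0.40. Eif2ak3, the sensor PERK, fell in wild-type callosum by 1.17 ± 0.12 on the log2 scale (SE), and by 1.49 with the offsets, but without them it did not pass in libraries labelled Bmal1-/- (edgeR adjusted p = 0.0574).

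Atf4 and Ddit3, which stand above Trib3 in this branch, did not pass between the sources in either genotype without the offsets. Atf4 had 178, 149 and 175 CPM in wild-type callosum, against 86.3, 174 and 171 CPM in wild-type neurospheres, at 0.27 ± 0.23 (SE, edgeR adjusted p = 0.3001), and at -0.83 with the offsets (edgeR adjusted p = 0.00895). Ddit3 was at -0.02 ± 0.42 without and 1.31 with the offsets (edgeR adjusted p = 0.0190). In callosum labelled Bmal1-/- both genes lay wholly above neurospheres so labelled, as did 40.3% of all genes. There Atf4 was at 0.48 without and -0.47 with the offsets (edgeR adjusted p = 0.0707). Ddit3 was there at 0.50 without and 2.04 with the offsets (edgeR adjusted p = 0.000269). Xbp1, the factor spliced by IRE1, had 61.2, 66.1 and 56.5 CPM in wild-type callosum, against 31.6, 29.3 and 28.7 CPM in wild-type neurospheres, at 1.08 ± 0.11 (edgeR adjusted p = 8.12e-06) and 0.52 with the offsets. Xbp1 had 61.1 and 68.4 CPM in callosum labelled Bmal1-/-, against 52.0, 32.3 and 30.8 CPM in neurospheres so labelled, at 0.80 ± 0.29 (edgeR adjusted p = 0.0415), and did not pass with the offsets (edgeR adjusted p = 0.0612) or without the second or the third neurosphere library or either callosum library so labelled (edgeR adjusted p = 0.112 to 0.185). These counts do not tell spliced from unspliced Xbp1. Ern1 did not pass in either genotype.

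Of the 6 ATF4 targets of amino acid metabolism and stress, 4 were lower and 2 higher in wild-type callosum, against 43.8% and 42% of all genes. In callosum labelled Bmal1-/- 4 were lower and 1 higher, against 37.5% and 35.1% of all genes. The 2 higher in wild type, Chac1 and Phgdh, did not stay higher with the offsets. Sesn2 had 17.7, 14.2 and 16.8 CPM in wild-type callosum, against 91.0, 99.9 and 114 CPM in wild-type neurospheres, at -2.60 ± 0.13 (SE, edgeR adjusted p = 8.25e-08) and -4.28 with the offsets. Shmt2, the mitochondrial enzyme that splits serine for one-carbon metabolism, had 49.96, 52.0 and 54.4 CPM in wild-type callosum, against 226, 242 and 255 CPM in wild-type neurospheres, at -2.16 ± 0.10 and -3.55 with the offsets. Psat1 fell by 1.78 ± 0.16 on the log2 scale in wild-type callosum, and by 1.33 with the offsets. Psat1 had 42.6 and 49.6 CPM in callosum labelled Bmal1-/-, against 255, 247 and 252 CPM in neurospheres so labelled, at -2.40 ± 0.20 (edgeR adjusted p = 7.90e-05). The sources did not overlap for any of these 3 genes in either genotype.

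Not all targets of ATF4 went this way. Chac1, which degrades glutathione, had 16.8, 11.5 and 12.6 CPM in wild-type callosum, against 3.52, 7.55 and 8.13 CPM in wild-type neurospheres, at 1.14 ± 0.30 (SE, edgeR adjusted p = 0.00520). With the offsets Chac1 was at -0.22 and did not pass (edgeR adjusted p = 0.508). Chac1 had 13.6 and 14.1 CPM in callosum labelled Bmal1-/-, against 3.63, 4.59 and 6.62 CPM in neurospheres so labelled, at 1.54 ± 0.30, and at 0.28 with the offsets (edgeR adjusted p = 0.579). Asns, asparagine synthetase, fell by 1.05 ± 0.14 on the log2 scale in wild-type callosum and by 0.37 with the offsets (edgeR adjusted p = 0.0491). In libraries labelled Bmal1-/- Asns was called lower at -0.85 without the offsets, and was at -0.0089 with them (edgeR adjusted p = 0.964). Phgdh, the first enzyme of serine synthesis, shares 63.1% of its 50-base stretches with other genes, and reads that map to several places were not counted.

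Of the 13 ER chaperones and isomerases, 9 were lower and 1 higher in wild-type callosum, against 43.8% lower and 42% higher over all genes. In callosum labelled Bmal1-/- 9 were lower and 0 higher, against 37.5% and 35.1% over all genes. Pdia3, an isomerase that acts on glycoproteins with calnexin and calreticulin, had 44.0, 45.3 and 46.1 CPM in wild-type callosum, against 532, 432 and 378 CPM in wild-type neurospheres. This was 9.61-fold lower, at -3.26 ± 0.15 (SE, edgeR adjusted p = 3.33e-08), and at -2.43 with the offsets. Pdia3 had 43.0 and 45.2 CPM in callosum labelled Bmal1-/-, against 564, 357 and 385 CPM in neurospheres so labelled, at -3.26 ± 0.30. Hspa5 was likewise low, with 72.5, 74.1 and 65.2 CPM in wild-type callosum, against 440, 335 and 295 CPM in wild-type neurospheres, at -2.29 ± 0.16 and -1.17 with the offsets. The sources did not overlap for either gene.

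For the chaperones of low GC content, more of the difference went with the offsets. Canx, the membrane lectin calnexin (GC 42.2%), had 102, 104 and 100.4 CPM in wild-type callosum, against 879, 1000 and 1013 CPM in wild-type neurospheres, at -3.19 ± 0.11 (SE, edgeR adjusted p = 9.01e-09) and -1.19 with the offsets. Hsp90b1, the ER form of HSP90 (GC 42.1%), had 96.7, 103 and 99.4 CPM in wild-type callosum, against 900.2, 800 and 748 CPM in wild-type neurospheres, at -2.98 ± 0.12 and -0.88 with the offsets. Dnajb9, the J-protein ERdj4 (GC 40.6%), had 3.65, 4.17 and 4.17 CPM in wild-type callosum, against 42.8, 35.6 and 36.6 CPM in wild-type neurospheres, at -3.21 ± 0.15 and -0.69 with the offsets. All 3 were called in both genotypes without the offsets. In libraries labelled Bmal1-/- the log2 fold change was -2.99 ± 0.30 for Canx, from 98.4 and 96.9 CPM in callosum against 550, 882 and 974 CPM in neurospheres. Hsp90b1 had 81.5 and 93.7 CPM in callosum labelled Bmal1-/-, against 729, 670 and 732 CPM in neurospheres so labelled, at -2.97 ± 0.21. Dnajb9 had 3.70 and 4.00 CPM in callosum labelled Bmal1-/-, against 38.97, 27.8 and 31.1 CPM in neurospheres so labelled, at -3.03 ± 0.28, and with the offsets it did not pass (-0.41, edgeR adjusted p = 0.138).

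Other chaperones of the ER did not pass or went the other way. Calr, the soluble lectin calreticulin and partner of calnexin, had 748, 847 and 736 CPM in wild-type callosum, against 864, 697 and 630 CPM in wild-type neurospheres, at 0.14 ± 0.14 (SE, edgeR adjusted p = 0.373). It was at 0.26 with the offsets (edgeR adjusted p = 0.0823). Hyou1, the large HSP70-like exchange factor of BiP, was at 0.17 ± 0.11 without the offsets (edgeR adjusted p = 0.180) and at -0.41 with them (edgeR adjusted p = 0.00700). Sdf2l1 had 7.84, 11.1 and 8.34 CPM in wild-type callosum, against 6.04, 3.34 and 3.14 CPM in wild-type neurospheres, at 1.17 ± 0.28 (edgeR adjusted p = 0.00326), and at -0.04 with the offsets. Pdia4, Pdia6 and Manf were lower in all 4 fits, from -2.27 ± 0.14 for the isomerase Pdia4 to -0.57 ± 0.15 for the secreted stress protein Manf in wild type without the offsets. Manf lost its wild-type call in the model of all 11 libraries (edgeR adjusted p = 0.0665). Its call in libraries labelled Bmal1-/- was lost with RLE scaling (edgeR adjusted p = 0.0526) and without the first (0.235) or the second (0.0834) callosum library. Dnajc3, the PERK inhibitor p58IPK, fell by 1.51 ± 0.15 on the log2 scale and was at 0.16 with the offsets (edgeR adjusted p = 0.268).

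Of the 7 genes that hold the ERSE letters shown above, Hspa5, Hsp90b1, Canx, Pdia6 and Dnajc3 were called lower in wild-type callosum without the offsets. Calr (0.14) and Creld2 (0.23) did not pass. Over all genes, 43.8% were lower. With the offsets Dnajc3 did not pass (0.16, edgeR adjusted p = 0.268), and Creld2 was called lower (-0.67, edgeR adjusted p = 0.00786). Pdia3 and Pdia4, whose windows hold no match, were lower as well.

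In ER-associated degradation, Herpud1 and Edem1 went in opposite directions. Herpud1 had 71.1, 55.9 and 65.0 CPM in wild-type callosum, against 13.6, 28.7 and 31.8 CPM in wild-type neurospheres, at 1.42 ± 0.27 (SE, edgeR adjusted p = 0.000741) and 0.87 with the offsets. Herpud1 had 62.7 and 67.2 CPM in callosum labelled Bmal1-/-, against 16.2, 15.1 and 21.0 CPM in neurospheres so labelled, at 1.95 ± 0.22. Edem1, which passes misfolded glycoproteins on to degradation, had 10.8, 11.2 and 8.82 CPM in wild-type callosum, against 54.9, 53.3 and 55.5 CPM in wild-type neurospheres, at -2.36 ± 0.13 and -1.43 with the offsets. The sources did not overlap for either gene in either genotype. Sel1l, the scaffold of the ubiquitin ligase complex, fell by 0.53 ± 0.10 on the log2 scale in wild-type callosum and was at 0.04 with the offsets (edgeR adjusted p = 0.686).

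Of the 9 cytosolic heat shock genes, 5 were higher and 2 lower in wild-type callosum, and 5 higher and 1 lower in callosum labelled Bmal1-/-, against the shares of all genes given above. The 21 further heat shock genes, among them the ER chaperone Serpinh1, had 8 higher and 12 lower in wild-type callosum. Hsf1 had 137, 136 and 120 CPM in wild-type callosum, against 39.6, 43.0 and 44.9 CPM in wild-type neurospheres, at 1.67 ± 0.10 (SE, edgeR adjusted p = 2.62e-07) and 0.93 with the offsets. Hsf1 had 122 and 140 CPM in callosum labelled Bmal1-/-, against 57.7, 45.3 and 45.1 CPM in neurospheres so labelled, at 1.46 ± 0.22. Dnajb1, the J-protein HSP40, had 62.8, 58.1 and 68.4 CPM in wild-type callosum, against 36.1, 32.2 and 34.4 CPM in wild-type neurospheres, at 0.93 ± 0.11 and 0.37 with the offsets. Dnajb1 had 61.1 and 69.7 CPM in callosum labelled Bmal1-/-, against 46.2, 35.7 and 34.3 CPM in neurospheres so labelled, at 0.80 ± 0.23, and it did not pass there with the offsets (edgeR adjusted p = 0.106). This call of Dnajb1 was also lost without the second or the third neurosphere library or either callosum library so labelled (edgeR adjusted p = 0.0570 to 0.113). Neither gene overlapped between the sources.

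The inducible HSP70 genes were low in both sources. Hspa1b had 8.67, 7.75 and 7.11 CPM in wild-type callosum, against 0.857, 1.42 and 1.30 CPM in wild-type neurospheres, at 2.76 ± 0.24 (SE, edgeR adjusted p = 3.22e-06) and 1.23 with the offsets. Hspa1a had 5.44, 6.63 and 7.32 CPM in wild-type callosum, against 1.49, 2.33 and 1.44 CPM in wild-type neurospheres, at 1.93 ± 0.26, and at 0.26 with the offsets (edgeR adjusted p = 0.387). These genes are near-identical copies that share 60.3% (Hspa1a) and 62.3% (Hspa1b) of their 50-base stretches, so their counts are uncertain. Hspa1b had 3.91 and 7.94 CPM in callosum labelled Bmal1-/-, against 2.26, 1.63 and 0.889 CPM in neurospheres so labelled, at 1.94 ± 0.50, a call lost without the second callosum library (edgeR adjusted p = 0.118). Hspa1a had 6.71 and 9.25 CPM in callosum labelled Bmal1-/-, against 2.52, 2.08 and 2.09 CPM in neurospheres so labelled, at 1.89 ± 0.30. Neither passed with the offsets in libraries labelled Bmal1-/- (edgeR adjusted p = 0.304 for Hspa1b and 0.337 for Hspa1a).

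Hsph1, the HSP110 exchange factor of HSP70, was higher in callosum in all 4 fits. It had 136, 162 and 139 CPM in wild-type callosum, against 113, 72.5 and 60.9 CPM in wild-type neurospheres, at 0.88 ± 0.21 (SE, edgeR adjusted p = 0.00304) and 1.47 with the offsets. Hsph1 had 160 and 110 CPM in callosum labelled Bmal1-/-, against 87.4, 82.6 and 79.4 CPM in neurospheres so labelled, at 0.74 ± 0.22 (edgeR adjusted p = 0.0200). This call was lost with the replicate block (edgeR adjusted p = 0.0703) and without the second (0.0725) or the third (0.0812) neurosphere library or the first callosum library (0.210). Bag3 fell in wild-type callosum by 0.89 ± 0.13 on the log2 scale (SE, edgeR adjusted p = 0.000137) and by 2.12 with the offsets. In libraries labelled Bmal1-/- Bag3 was at 0.26 ± 0.21 between the sources and did not pass (edgeR adjusted p = 0.292), while with the offsets it was at -0.88 (edgeR adjusted p = 0.00333). Hspa8, the constitutive HSP70, was at -0.17 ± 0.17 in wild-type callosum (edgeR adjusted p = 0.385) and at 0.89 with the offsets (edgeR adjusted p = 0.000982), and 51.4% of its 50-base stretches occur in other genes. Hsp90ab1, the constitutive cytosolic HSP90, had the highest level per kilobase of the 41 in every group and did not pass between sources in either genotype, at 0.17 ± 0.11 in wild type.

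The subunits of the mitochondrial chaperonin share a promoter yet differed from each other. Hspd1, the HSP60 subunit, had 7.43, 9.14 and 8.41 CPM in wild-type callosum, against 163, 141 and 126 CPM in wild-type neurospheres. This was 16.6-fold lower, at -4.06 ± 0.15 (SE, edgeR adjusted p = 1.07e-08), and at -3.18 with the offsets. Hspd1 had 6.71 and 8.22 CPM in callosum labelled Bmal1-/-, against 145, 152 and 158 CPM in neurospheres so labelled, at -4.29 ± 0.24. Hspe1, the HSP10 subunit, had 11.7, 11.4 and 13.4 CPM in wild-type callosum, against 23.8, 26.6 and 21.2 CPM in wild-type neurospheres, at -0.93 ± 0.14. The sources did not overlap for either subunit, but Hspe1 changed sign with the offsets, as given above. Of the 50-base stretches of Hspd1, 44.8% also occur in other genes, against 8.2% for Hspe1, and the genes lie head to head on opposite strands of chromosome 1 with overlapping exons, so reads there cannot be told apart without strand.

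A window of Hspd1 and the window of Hspe1 share 285 of 300 bases. It is shown because the genes it serves differed in the size of their source difference, with the overlapping heat shock elements in capitals.
Hspe1 (chr1:55087898-55088197, plus strand): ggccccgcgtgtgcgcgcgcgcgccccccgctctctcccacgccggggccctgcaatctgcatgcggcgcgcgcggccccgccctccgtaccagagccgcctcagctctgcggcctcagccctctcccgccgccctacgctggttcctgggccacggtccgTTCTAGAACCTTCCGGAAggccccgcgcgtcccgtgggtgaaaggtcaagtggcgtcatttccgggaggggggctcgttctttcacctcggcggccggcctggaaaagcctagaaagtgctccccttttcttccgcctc

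**Figure D5:**
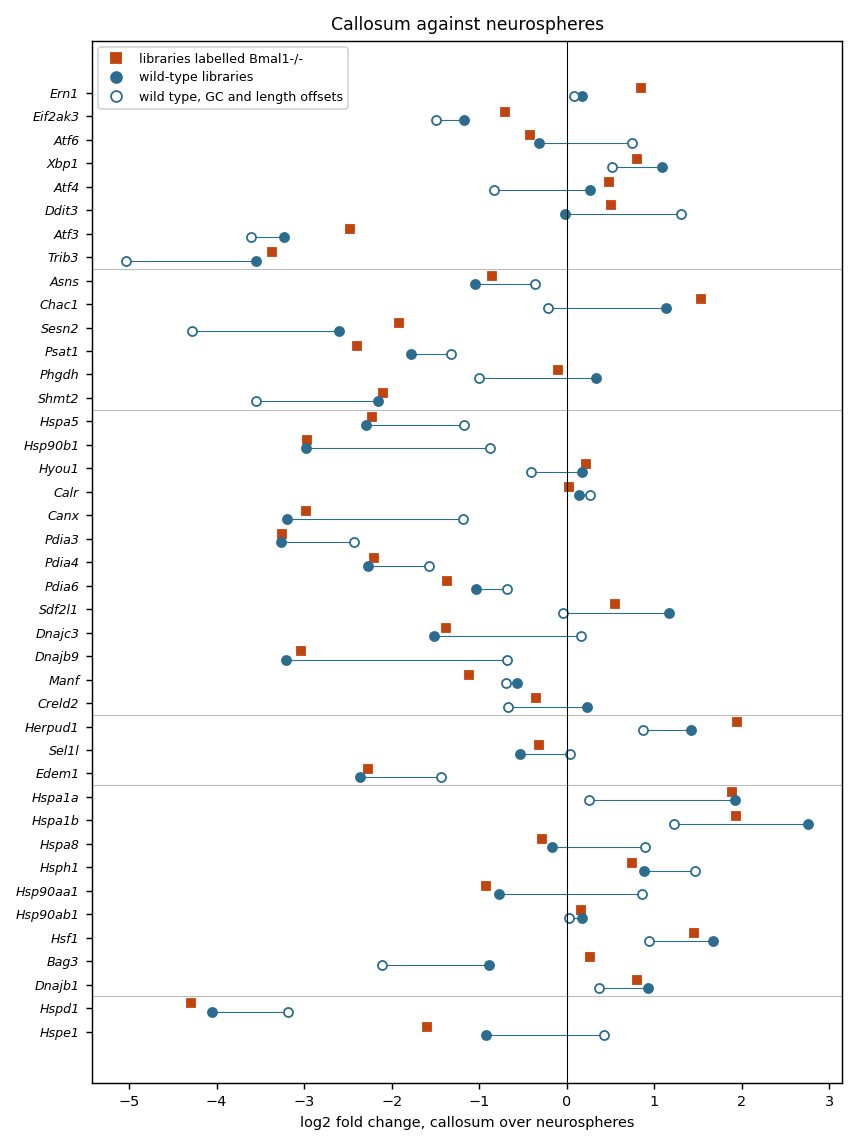
Log2 fold change of the 41 genes between callosum and neurospheres, grouped by role from top to bottom: squares are libraries labelled Bmal1-/-, filled circles wild-type libraries, and open circles wild-type libraries with GC and length offsets. Hspd1 (-4.06), Trib3 (-3.56) and Pdia3 (-3.26) stay far to the left with the offsets. Hspe1, Hsp90aa1, Atf6 and Phgdh cross 0 and passed on both sides of it. Chac1, Sdf2l1, Dnajc3, Sel1l, Atf4, Ddit3, Hyou1, Creld2 and Hspa8 also cross 0, without passing on both sides.

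The further genes of these pathways are given for wild type without offsets, to be read against 43.8% lower and 42% higher over all genes. Of 33 further ATF4 targets, 22 were lower in callosum and 3 higher, from -8.15 ± 0.94 for the stress cytokine Gdf15 and -5.34 ± 0.21 for the mitochondrial folate enzyme Aldh1l2 to 0.83 ± 0.11 for the glycine transporter Slc6a9 and 0.61 ± 0.11 for the tryptophan tRNA ligase Wars (log2 fold change ± SE). Of 23 further genes listed under ER folding and translocation, 17 were lower and 2 higher. Among them the oxidase Ero1l was at -6.18 ± 0.17, the HSP70-like Hspa13 at -3.46 ± 0.17, the prolyl isomerase Fkbp2 at 2.48 ± 0.14 and Erp29 at 0.40 ± 0.09. Of 15 further genes of ER-associated degradation, 5 were lower and 5 higher, among them Erlec1 at -3.10 ± 0.12, Edem3 at -2.51 ± 0.10, Derl3 at 3.43 ± 0.33 and the ubiquitin ligase Syvn1 at 1.75 ± 0.09. Of 21 further heat shock genes, 12 were lower and 8 higher, with a median of -0.56 against 0.88 for the 9 described above. They were listed as cytosolic, although Serpinh1 encodes a collagen chaperone of the ER. Cacybp was at -3.74 ± 0.18, Serpinh1 at -3.65 ± 0.16, the small heat shock protein Cryab at 4.08 ± 0.13 and the ubiquitin gene Ubb at 3.81 ± 0.24. Of 9 further mitochondrial genes, 7 were lower and 1 higher, with the protease Yme1l1 at -4.04 ± 0.16, the mitochondrial HSP70 Hspa9 at -3.79 ± 0.15 and the protease Clpp at 1.27 ± 0.10. Of 13 further sensors and regulators, 9 were lower and 3 higher, with the eIF2 kinase Eif2ak2 at -5.12 ± 0.19, the protease Mbtps2, which cleaves ATF6, at -3.54 ± 0.15, Atf6b at 1.75 ± 0.09 and Atf5 at 0.80 ± 0.11.

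Whether the genotype effect differed between callosum and neurospheres was tested in all 11 libraries. Of the 41 genes, 0 passed by edgeR, against 0.0131% of the 15322 genes tested. At an unadjusted p under 0.05 there were 3 of the 41 (7.32%), against 4.28% of all genes. These were Sesn2 at 0.68 ± 0.24, Bag3 at 1.14 ± 0.23 and Psat1 at -0.62 ± 0.25 (log2 difference ± SE). By DESeq2 1 passed, Bag3. The median of this difference over the 41 was 0.01, against -0.04 for all genes.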

How the data were processed

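The deposited files hold raw read counts per gene. Reads were aligned with STAR 2.7.1a to mm10, per the submitters' processing notes, and the counting annotation was not given in the sources used here. Counts that ignored strand were used, since either strand held about as many reads. Rows for reads outside any gene (unmapped, outside genes, ambiguous) were left out, as were reads mapping to several places, which the files list at 0. Outside genes lay 8.55% to 16.6% of reads, and 0.772% to 1.40% were ambiguous. Tests were made with edgeR 4.0.16 under R 4.3.3, by its quasi-likelihood F statistic (robust, two-sided, TMM scaling, filterByExpr), with Benjamini-Hochberg adjustment over all genes tested and a threshold of 0.05. Each comparison was fitted on its own groups, and the interaction on all 11 libraries. Levels are CPM, TMM-scaled over 11 libraries. The SE is the log2 fold change divided by the root of F. A gene with no count may lie at up to 3 counts of its library, counting error only. Alternatives were a replicate block, RLE scaling, no filter, DESeq2 1.42.0, a single model and each library left out. The fits were tested on simulated data. Members and lists were chosen with earlier results of these data known. Values per library are given for genes that passed (at most 8 in each direction per comparison), otherwise for the 4 of smallest p. Other members shown by library were picked as examples of their role after their values were seen. Of the further lists, the 2 of largest change in each direction are named for wild type. Gene models are from GENCODE M21 and promoter windows from RefSeq. Within a group, libraries differed by at least 6.85 in chi-square per degree of freedom, so none was a duplicate.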

Additional observations from a re-analysis of the deposited data

How the results depend on the processing

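The count of members called in callosum between genotypes was 0 in the model of all 11 libraries and 0 with GC and length offsets and the replicate block together, where Bag3 had a log2 fold change of 0.89 (edgeR adjusted p = 0.0670). Leaving out 1 library at a time gave 0 to 1. With libraries left out, the genes higher in callosum than in neurospheres among libraries labelled Bmal1-/- numbered 5 to 10, against 8, and those lower 15 to 22, against 19. The interaction had 1 call by DESeq2, against 0 by edgeR. Over all genes, calls between genotypes ran from 27 to 322 in callosum, against 129, and from 1 to 33 in neurospheres, against 1. The replicate numbers were not shown to pair the libraries: deviations of same-numbered neurosphere libraries correlated at 0.28, -0.01 and 0.35, and those in callosum at 0.06 and 0.03. With the replicate block, Bag3 in callosum had a log2 fold change of 0.99 (edgeR adjusted p = 0.00602), members called in wild type between sources stayed at 10 higher and 23 lower, and those higher in libraries labelled Bmal1-/- numbered 6, since Dnajb1, Xbp1 and Hsph1 lost their calls (edgeR adjusted p = 0.0503, 0.0612 and 0.0703), 5 of the 8 were kept and 1 was gained.

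Directions turned with the GC and length offsets, which were chosen after seeing the data; the cause was not tested. In wild type between sources, the log2 fold change with offsets alone was -0.038 for Sdf2l1, -0.22 for Chac1, 0.74 for Atf6, -1.01 for Phgdh, 0.16 for Dnajc3, 0.041 for Sel1l, 0.86 for Hsp90aa1 and 0.43 for Hspe1. With the replicate block added it was -0.18 for Chac1, 0.74 for Atf6, -1.01 for Phgdh, 0.16 for Dnajc3, 0.043 for Sel1l, 0.88 for Hsp90aa1 and 0.43 for Hspe1. In libraries labelled Bmal1-/- it was 0.17 for Dnajc3, 0.75 for Hsp90aa1 and 0.044 for Hspe1 with offsets alone, and 0.032 for Asns, 0.17 for Dnajc3, 0.77 for Hsp90aa1 and 0.018 for Hspe1 with the block added. Of all values of named genes under the alternatives, 812 kept direction and side of the threshold, 50 kept direction but lost the call, 1 gained a call and 22 turned.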
